A study of Mus musculus with 16 samples.

Results

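The genes of glycine, serine, methionine and one-carbon metabolism were examined in the livers of Trim28MommeD9/+ and Trim28+/+ mice. The 35 members were taken by name from the enzymes of serine synthesis, serine and glycine interconversion, glycine cleavage, the path from choline to glycine, the methionine cycle with transsulfuration, creatine synthesis, serine and threonine breakdown, glyoxylate and glycerate handling, and the folate carriers of one-carbon units. Of these, 31 had an annotated probe, out of 16593 genes with one, and 24 passed the filter on dim probes and were tested. Trim28 encodes a co-repressor that is recruited to DNA by KRAB zinc finger proteins, and MommeD9 is a chemically induced point mutation at a splice site of the gene, carried in all cells and on 1 of the alleles only. Trim28MommeD9/+ livers (7 arrays) and Trim28+/+ livers (9 arrays) came from males of 4 weeks of age on the FVB/NJ background, and the line in which both genotypes were kept carries a GFP transgene. The methods give 4 mice of each genotype with technical replicates. Which arrays share a mouse is not given in the sources used here, so each test counts arrays, and its p-value is too small to the extent that arrays came from the same mouse.

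In liver, glycine and serine are made from each other by enzymes that pass a one-carbon unit to or from folate, and glycine is split in mitochondria by the glycine cleavage complex. Choline is oxidised to betaine, which gives a methyl group to homocysteine, and what is left is trimmed to glycine in mitochondria. The methionine so formed becomes S-adenosylmethionine, the methyl donor for DNA, histones, phospholipids and creatine, and the homocysteine that remains is either methylated again or turned into cysteine.

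A feature of the arrays touches each result below. By the constant that the authors subtracted on each array, the arrays form a set of 8 with constants of 37.6 to 42.7 intensity units, which holds all 7 Trim28MommeD9/+ arrays and Trim28+/+ replicate 1, and a set of 8 with constants of 48.8 to 56.2, which holds the other Trim28+/+ arrays. Genotype and background set are therefore told apart by Trim28+/+ replicate 1 alone, and with the set as a block in the model each value is the mean of the Trim28MommeD9/+ arrays minus that 1 array. Mean raw intensity was 205 to 270 on Trim28MommeD9/+ arrays and 273 to 344 on Trim28+/+ arrays. Trim28 itself had normalized log2 intensities of 8.53 to 8.76 (median 8.62) on Trim28MommeD9/+ arrays and 8.63 to 9.39 (median 9.05) on Trim28+/+ arrays. Its log2 fold change was -0.44 (SE 0.09, limma adjusted p = 0.00277), with 5 of 7 Trim28MommeD9/+ arrays below all Trim28+/+ arrays, and -0.77 with the set as a block (adjusted p = 0.186).

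Of the 24 members tested, 4 were lower in Trim28MommeD9/+ livers (Dld, Bhmt, Dmgdh and Psat1), 5 were higher (Gamt, Ahcy, Agxt, Ftcd and Mthfd1) and 15 did not pass the test (limma, Benjamini-Hochberg adjusted p under 0.05 over 7302 genes). Over all genes tested, 11.4% were lower and 10.4% were higher, or 21.8% in either direction. The members' median log2 fold change was 0.08, beside 0.05 over all genes, and 15 of 24 members had a positive value, beside 59.9% of all genes. The lower members had the larger changes, with log2 fold changes of -0.52 to -1.04, while those of the higher members were 0.21 to 0.50. The -1.04 is that of Dld, whose Trim28MommeD9/+ mean lay near the lowest detected signals. All genes leaned the same way: with a fold change of at least 1.5 also required, 4.14% were lower and 0.411% higher. Read by the probe of highest mean for each gene, in no member did the genotypes separate completely (0 of 24 in either direction, beside 1.11% of all genes lower and 1.29% higher on every Trim28MommeD9/+ array than on every Trim28+/+ array). Dld, Dmgdh, Psat1, Gamt and Ftcd also stand in the list of changed genes that the study drew from these arrays, so their calls are not independent of it.

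The balance of directions depended on the scaling. Of all genes called, 47.8% were higher with quantile normalization, 57.7% with scaling to the median of the probes detected on all arrays, 25.9% with the authors' values and 1.37% when each array was scaled to the median of all probes. The last of these moved the median of all genes to -0.19, and 9 members (Bhmt2, Chdh, Cth, Glyctk and Mat1a besides the 4 named) were then lower and 0 higher by limma (10 and 1 at an unadjusted p under 0.05), beside 34.6% of all genes lower and 0.479% higher. The lower calls of Dld, Bhmt, Dmgdh and Psat1 held under each of the scalings tried, while none of the 5 higher calls held under scaling to the median of all probes. With the background set as a block, no member passed in either direction by limma (2 higher, Ahcy and Ftcd, and 0 lower at an unadjusted p under 0.05), beside 0.0274% of all genes higher and 0.0137% lower.

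**Figure D1:**
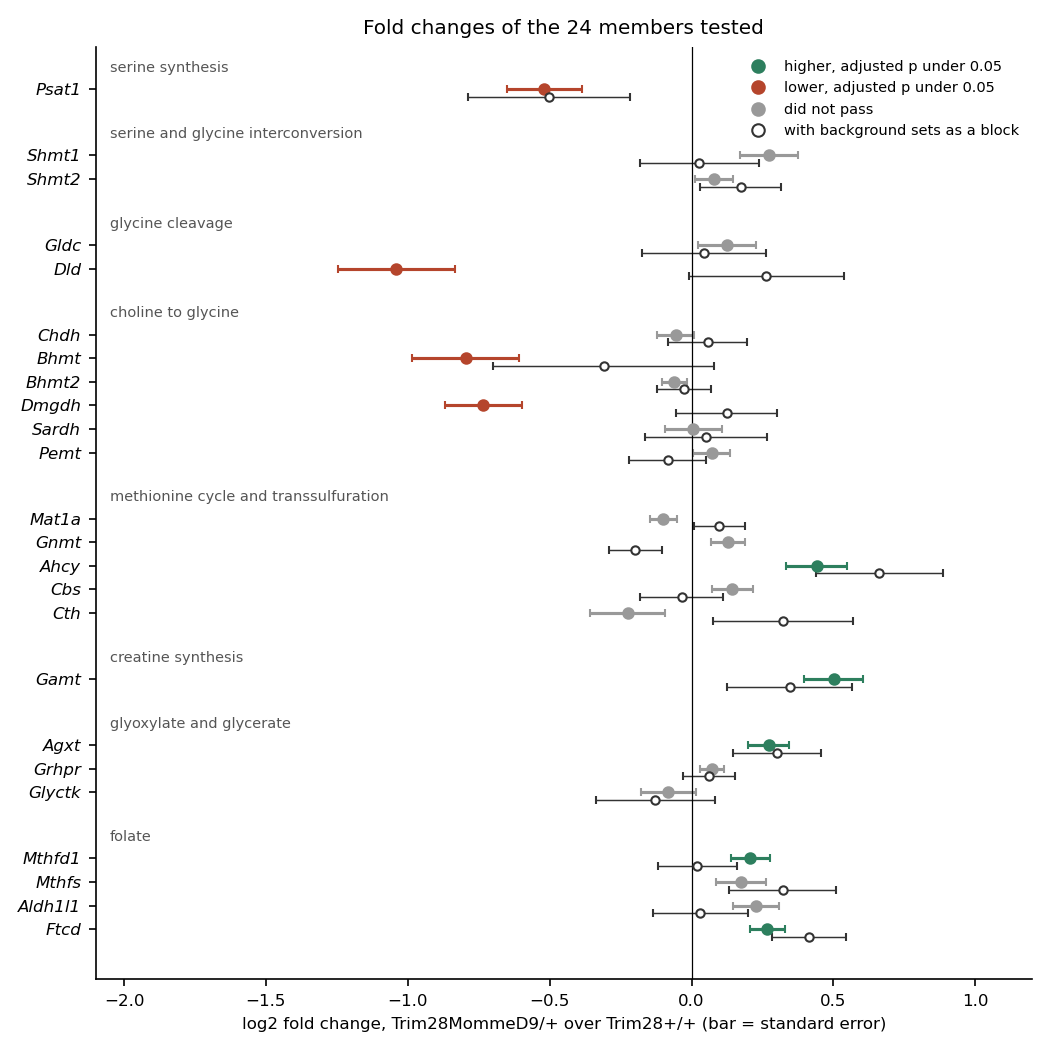
Log2 fold change, Trim28MommeD9/+ over Trim28+/+, of the 24 members tested, with the standard error as a bar and members grouped by role. Filled points use all 16 arrays and open points have the background sets as a block, where Dld is at 0.26 and Dmgdh at 0.12 in place of -1.04 and -0.73. The -1.04 of Dld is not a measured fold, as its Trim28MommeD9/+ mean was under the mean lowest detected signal. The 5 higher calls (green) are smaller in size than the largest lower calls (red) and do not pass when arrays are scaled to the median of all probes, where Mthfd1 is at -0.02.

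Of the enzymes of serine synthesis, only Psat1 was tested. Psat1, the aminotransferase that makes phosphoserine, had log2 intensities of 6.32, 6.23, 5.95, 6.65, 5.79, 5.78 and 6.59 on Trim28MommeD9/+ arrays and 6.69, 6.89, 6.85, 6.54, 6.92, 6.37, 6.62, 6.92 and 6.54 on Trim28+/+ arrays, in order of replicate number. Trim28MommeD9/+ replicates 4 and 7 lay within the Trim28+/+ values, and the other 5 arrays lay below all of them. Psat1 was lower in Trim28MommeD9/+ livers (log2 fold change -0.52, SE 0.13, limma adjusted p = 0.00998). Trim28+/+ replicate 1, at 6.69, was at the Trim28+/+ median, so the value with the background set as a block was -0.50 (adjusted p = 0.738). The SD of Psat1 was 0.36 in Trim28MommeD9/+ livers (n = 7 arrays) and 0.20 in Trim28+/+ livers (n = 9 arrays). Phgdh, the dehydrogenase that opens the path, and Psph, the phosphatase that closes it, had no array of either genotype with a detection p-value under 0.01, so no level can be given for them.

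Both enzymes that interconvert serine and glycine were measured and neither passed the test. Shmt1, the cytosolic hydroxymethyltransferase, ranged from 8.82 to 9.28 (median 9.03) on Trim28MommeD9/+ arrays and from 8.38 to 9.16 (median 8.77) on Trim28+/+ arrays. Its log2 fold change was 0.27 (SE 0.10, limma adjusted p = 0.0612). It passed without Trim28+/+ replicate 1 (adjusted p = 0.0354), without Trim28+/+ replicate 4 (0.0241) or without Trim28MommeD9/+ replicate 2 (0.047). With each array left out in turn, the limma adjusted p ranged from 0.0241 to 0.13. Trim28+/+ replicate 1, at 9.02, was near the Trim28MommeD9/+ mean of 9.05. Shmt2, the mitochondrial enzyme, was at 8.19 to 8.43 in Trim28MommeD9/+ livers and 8.03 to 8.44 in Trim28+/+ livers (log2 fold change 0.08, adjusted p = 0.418).

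The glycine cleavage complex was represented by its decarboxylase and by its dehydrogenase, of which the dehydrogenase passed the test. Dld, the lipoamide dehydrogenase that also serves the pyruvate and 2-oxoglutarate dehydrogenase complexes, had log2 intensities of 5.28, 5.08, 5.22, 5.37, 4.73, 5.03 and 5.31 on Trim28MommeD9/+ arrays. On Trim28+/+ arrays it had 4.88, 6.47, 6.10, 6.01, 6.24, 6.04, 6.63, 6.91 and 6.40. All 7 Trim28MommeD9/+ arrays lay below the other 8 Trim28+/+ arrays, and Trim28+/+ replicate 1, at 4.88, lay among the Trim28MommeD9/+ values. Dld was lower in Trim28MommeD9/+ livers (log2 fold change -1.04, SE 0.21, limma adjusted p = 0.00252). Its Trim28MommeD9/+ mean, 5.15, was under the mean lowest detected signal of those arrays, 5.19, so -1.04 is not a measured fold. The probe is dim: its detection p-value was under 0.01 on 4 of 7 Trim28MommeD9/+ arrays and on 8 of 9 Trim28+/+ arrays. With the background set as a block its value turned to 0.26 (adjusted p = 0.894). Gldc, the glycine decarboxylase, ranged from 11.34 to 11.90 on Trim28MommeD9/+ arrays and from 11.24 to 11.79 on Trim28+/+ arrays (log2 fold change 0.12, SE 0.10, adjusted p = 0.389). Amt and Gcsh, the aminomethyltransferase and the lipoyl carrier, passed detection on 1 and 0 of 7 Trim28MommeD9/+ arrays and on 1 and 2 of 9 Trim28+/+ arrays, and were not tested.

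All 6 members grouped under the path from choline to glycine were measured, of which 2 were lower and 4 did not pass. Bhmt2 and Pemt are in this group, though neither is a step from choline to glycine. Bhmt, which methylates homocysteine with betaine, had log2 intensities of 9.41, 9.38, 10.07, 9.65, 9.18, 9.69 and 9.58 on Trim28MommeD9/+ arrays and 9.87, 10.64, 10.34, 9.91, 10.41, 9.70, 10.65, 11.33 and 10.39 on Trim28+/+ arrays. All but Trim28MommeD9/+ replicate 3 lay below every Trim28+/+ array, and Trim28+/+ replicate 8 was the highest of all. The log2 fold change was -0.80 (SE 0.19, limma adjusted p = 0.00699), and -0.31 with the background set as a block (adjusted p = 0.921). The call of Bhmt was also lost with arrays paired as presumptive technical replicates (-0.80, SE 0.25, adjusted p = 0.0657). Dmgdh, the mitochondrial dehydrogenase that takes a methyl group off dimethylglycine, the product of the Bhmt reaction, had 6.56, 6.42, 6.32, 6.24, 6.40, 6.30 and 6.34 on Trim28MommeD9/+ arrays. On Trim28+/+ arrays it had 6.24, 7.43, 7.20, 7.08, 6.91, 7.00, 7.48, 7.33 and 7.26. As for Dld, the 7 Trim28MommeD9/+ arrays lay below 8 Trim28+/+ arrays, and Trim28+/+ replicate 1 lay at the lower end of the Trim28MommeD9/+ values. The log2 fold change of Dmgdh was -0.73 (SE 0.14, adjusted p = 0.00183), and 0.12 with the background set as a block (adjusted p = 0.931). Dld and Dmgdh were the 2 of 24 members in which every Trim28MommeD9/+ array was below every Trim28+/+ array but replicate 1, beside 6.03% of all genes.

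The other enzymes of the group did not pass the test. Sardh, which takes the last methyl group off sarcosine to give glycine, ranged from 7.50 to 7.94 (median 7.76) on Trim28MommeD9/+ arrays and from 7.22 to 8.03 (median 7.76) on Trim28+/+ arrays (log2 fold change 0.01, SE 0.10, limma adjusted p = 0.97). Chdh, the choline dehydrogenase, was at 7.41 to 7.60 in Trim28MommeD9/+ livers and 7.43 to 7.87 in Trim28+/+ livers (log2 fold change -0.06, adjusted p = 0.57). Pemt, which makes phosphatidylcholine by methylation, had a log2 fold change of 0.07 (adjusted p = 0.455).

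**Figure D2:**
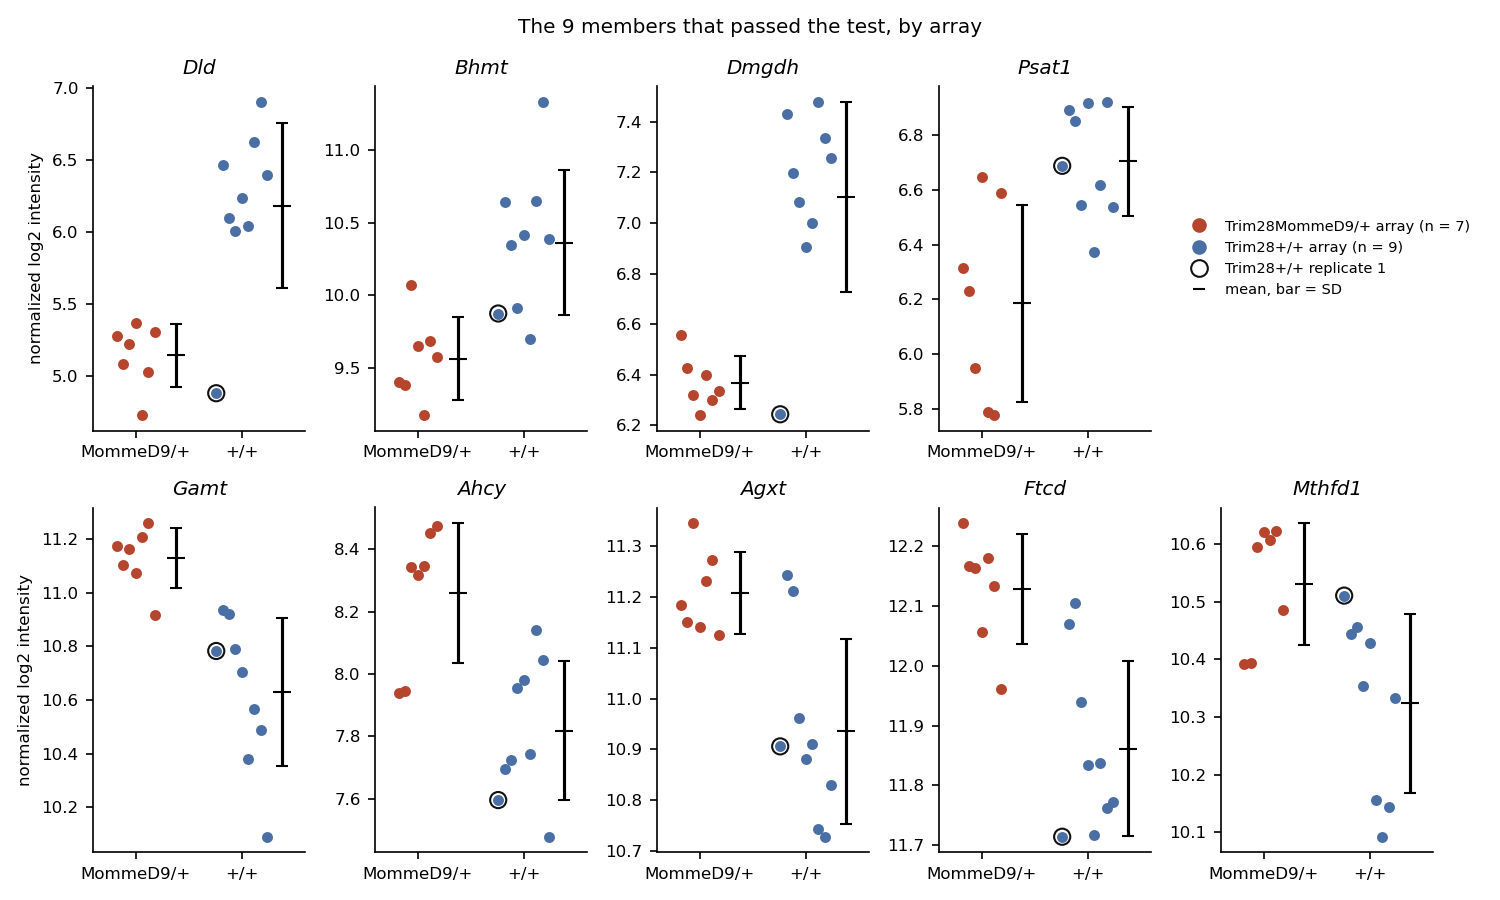
Normalized log2 intensity on each array for the 9 members that passed the test, lower members above and higher members below, with Trim28MommeD9/+ arrays (n = 7) left of Trim28+/+ arrays (n = 9) and the mean with its SD beside each group. Trim28+/+ replicate 1, the circled array, lies with the Trim28MommeD9/+ arrays for Dld (4.88) and Dmgdh (6.24) and with the other Trim28+/+ arrays for Psat1 (6.69), Ahcy (7.60), Agxt (10.91) and Ftcd (11.71). The higher calls do not pass when arrays are scaled to the median of all probes, where Mthfd1 is at -0.02.

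Bhmt, Bhmt2 and Dmgdh are neighbours on mouse chromosome 13, with no other protein-coding gene annotated between the ends of Bhmt and Dmgdh (RefSeq, GRCm38.p6). Bhmt2 and Dmgdh start back to back, 133 bases apart, and Bhmt starts 36.5 kb from the start of Bhmt2 and runs the same way. Bhmt2, which methylates homocysteine with S-methylmethionine, lies between the lower pair and did not pass the test, except under scaling to the median of all probes (-0.27, adjusted p = 0.014, beside -1.04 for Bhmt and -0.99 for Dmgdh). It ranged from 11.85 to 12.04 (median 11.87) on Trim28MommeD9/+ arrays and from 11.82 to 12.08 (median 11.97) on Trim28+/+ arrays (log2 fold change -0.06, SE 0.04, limma adjusted p = 0.338). The stretch shared by the starts of Bhmt2 and Dmgdh and the 250 bases before the start of Bhmt are shown because the first lies between a gene that passed the test and one that did not. Capitals mark CG dinucleotides, the sites of DNA methylation, and sequences are from RefSeq for build GRCm38.p6.

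Bhmt2-Dmgdh, chr13:93674303-93674435, plus strand, which is the strand of Dmgdh: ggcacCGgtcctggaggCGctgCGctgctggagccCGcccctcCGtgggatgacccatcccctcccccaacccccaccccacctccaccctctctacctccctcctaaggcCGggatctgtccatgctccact

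Bhmt, chr13:93637759-93638008, minus strand, the strand of the gene: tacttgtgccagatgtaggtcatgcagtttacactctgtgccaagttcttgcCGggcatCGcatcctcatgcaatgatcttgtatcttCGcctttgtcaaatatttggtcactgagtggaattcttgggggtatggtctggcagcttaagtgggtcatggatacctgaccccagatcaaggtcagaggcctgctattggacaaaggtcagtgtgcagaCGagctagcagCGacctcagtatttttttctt

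The shared stretch holds 6 CG dinucleotides in 133 bases and the Bhmt stretch 5 in 250. In the full 250 bases before the start, Dmgdh has 16 and Bhmt2 has 20. Of the tested genes with such a window, 98.8% have at least 1 CG in the 250 bases before the start and 87.5% have at least 5. The difference of the log2 intensities of Dmgdh and Bhmt2 within each array, taken after the values were seen and so given with no test, was -5.54 ± 0.10 (SD, n = 7) on Trim28MommeD9/+ arrays and -4.87 ± 0.36 (SD, n = 9) on Trim28+/+ arrays. On Trim28+/+ replicate 1 it was -5.69, within the Trim28MommeD9/+ range of -5.72 to -5.44.

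**Figure D3:**
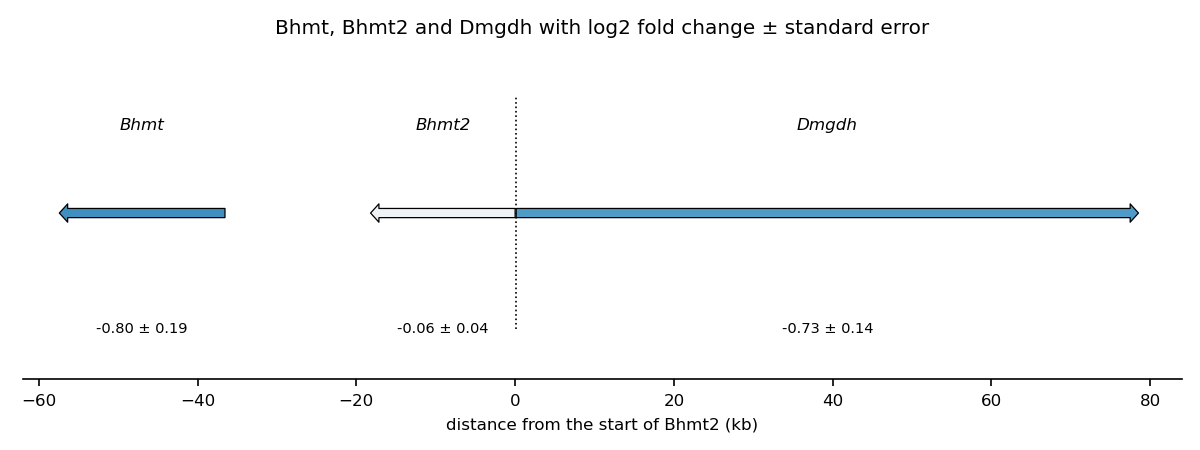
Map of Bhmt, Bhmt2 and Dmgdh, drawn to scale in kb from the start of Bhmt2, with arrows in the direction of transcription, shaded blue by the size of the decrease, and the log2 fold change, Trim28MommeD9/+ over Trim28+/+, with its standard error below each gene. With all arrays as units Bhmt (-0.80) and Dmgdh (-0.73) passed the test and Bhmt2 (-0.06), which shares its start region with Dmgdh, did not. Bhmt did not pass with presumptive technical pairs, and neither gene passed with the background set as a block.

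In the methionine cycle and transsulfuration, 1 of 5 members tested was higher and 4 did not pass. Ahcy, the hydrolase that splits S-adenosylhomocysteine, had log2 intensities of 7.94, 7.94, 8.34, 8.32, 8.34, 8.45 and 8.47 on Trim28MommeD9/+ arrays. On Trim28+/+ arrays it had 7.60, 7.70, 7.72, 7.95, 7.98, 7.74, 8.14, 8.05 and 7.48. Trim28MommeD9/+ replicates 1 and 2 lay within the Trim28+/+ values and the other 5 arrays above all of them. Ahcy was higher in Trim28MommeD9/+ livers (log2 fold change 0.44, SE 0.11, limma adjusted p = 0.00773). Trim28+/+ replicate 1 was among the lower Trim28+/+ arrays, and with the background set as a block the value was 0.66 (SE 0.22, adjusted p = 0.541).

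Mat1a, the liver enzyme that makes S-adenosylmethionine, and Gnmt, which uses it to methylate glycine, did not pass the test. Mat1a ranged from 13.90 to 14.11 on Trim28MommeD9/+ arrays and from 13.92 to 14.26 on Trim28+/+ arrays (log2 fold change -0.10, SE 0.05, limma adjusted p = 0.148). Gnmt ranged from 13.89 to 14.11 on Trim28MommeD9/+ arrays and from 13.74 to 14.21 on Trim28+/+ arrays, the highest being Trim28+/+ replicate 1 (log2 fold change 0.13, SE 0.06, adjusted p = 0.131). Without Trim28+/+ replicate 1 both passed, Mat1a at -0.12 (adjusted p = 0.044) and Gnmt at 0.17 (adjusted p = 0.0127). Of the enzymes that turn homocysteine into cysteine, Cbs had a log2 fold change of 0.14 (adjusted p = 0.153) and Cth one of -0.23 (adjusted p = 0.231). Cth was lowest of all 16 arrays on Trim28+/+ replicate 1 (5.94), and its value turned to 0.32 with the background set as a block. Mtrr, which reactivates methionine synthase, had 4 probes, and each was below the filter. Methionine synthase itself, Mtr, was not among the annotated probes used here.

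Creatine synthesis draws on S-adenosylmethionine for its last step. Gamt, the methyltransferase of that step, had log2 intensities of 11.18, 11.11, 11.16, 11.07, 11.21, 11.26 and 10.92 on Trim28MommeD9/+ arrays and 10.78, 10.94, 10.92, 10.79, 10.70, 10.38, 10.57, 10.49 and 10.09 on Trim28+/+ arrays. The genotypes overlapped through Trim28MommeD9/+ replicate 7 alone. Gamt was higher in Trim28MommeD9/+ livers (log2 fold change 0.50, SE 0.10, limma adjusted p = 0.00318), and its value was 0.35 with the background set as a block (adjusted p = 0.774). Gatm, the amidinotransferase of the step before, had no array of either genotype above the detection threshold. The breakdown of serine and threonine could not be examined, as Gcat was below the filter and Sds, Sdsl and Tdh were not among the annotated probes used here.

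Of the 3 enzymes of glyoxylate and glycerate, Agxt was higher. Agxt, which turns glyoxylate into glycine in peroxisomes, ranged from 11.12 to 11.34 (median 11.18) on Trim28MommeD9/+ arrays and from 10.73 to 11.24 (median 10.91) on Trim28+/+ arrays. All 7 Trim28MommeD9/+ arrays lay above 7 of the Trim28+/+ arrays, and 2 Trim28+/+ arrays lay among them (log2 fold change 0.27, SE 0.07, limma adjusted p = 0.013). Its value was 0.30 with the background set as a block (adjusted p = 0.694), and it did not pass with presumptive technical pairs (adjusted p = 0.0501). Grhpr, the reductase that also removes glyoxylate, was at 11.73 to 11.95 in Trim28MommeD9/+ livers and 11.67 to 11.85 in Trim28+/+ livers (log2 fold change 0.07, adjusted p = 0.222).

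Glyctk, the glycerate kinase, gave different values by probe. The brighter probe ranged from 9.49 to 9.93 on Trim28MommeD9/+ arrays and from 9.43 to 10.17 on Trim28+/+ arrays (log2 fold change -0.08, SE 0.10, limma adjusted p = 0.57). A dimmer probe, detected on all arrays, had log2 intensities of 6.29, 6.32, 6.10, 6.05, 6.17, 5.93 and 5.87 on Trim28MommeD9/+ arrays and 6.42, 6.80, 6.77, 6.72, 7.09, 6.77, 7.34, 7.21 and 6.95 on Trim28+/+ arrays. Here the genotypes did not overlap, Trim28+/+ replicate 1 being the lowest Trim28+/+ array (log2 fold change -0.79, SE 0.11, adjusted p over all 10291 probes = 0.000701). Against Trim28+/+ replicate 1 alone the Trim28MommeD9/+ mean differed by -0.31. It was the only 1 of 34 member probes tested that was lower on every Trim28MommeD9/+ array than on every Trim28+/+ array, beside 1.14% of all probes. A probe reads a short part of a transcript, and what part of Glyctk each reads is not given in the files used here.

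Of the 4 folate enzymes, 2 were higher and 2 did not pass. Ftcd, which passes a one-carbon unit from histidine breakdown to folate, ranged from 11.96 to 12.24 (median 12.16) on Trim28MommeD9/+ arrays and from 11.71 to 12.11 (median 11.83) on Trim28+/+ arrays, with 5 of 7 Trim28MommeD9/+ arrays above all Trim28+/+ arrays. Its log2 fold change was 0.27 (SE 0.06, limma adjusted p = 0.00654), and 0.41 with the background set as a block (adjusted p = 0.541). A dimmer probe of Ftcd ranged from 7.52 to 8.18 (median 7.93) on Trim28MommeD9/+ arrays and from 6.68 to 7.60 (median 7.32) on Trim28+/+ arrays, and passed with a larger log2 fold change of 0.65 (SE 0.13, adjusted p over all probes = 0.00248).

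Mthfd1, the trifunctional enzyme that interconverts folate one-carbon units in the cytosol, ranged from 10.39 to 10.62 (median 10.59) on Trim28MommeD9/+ arrays and from 10.09 to 10.51 (median 10.35) on Trim28+/+ arrays. Its log2 fold change was 0.21 (SE 0.07, limma adjusted p = 0.0392), and 0.02 with the background set as a block, since Trim28+/+ replicate 1 was the highest Trim28+/+ array. This call was lost when any 1 of 9 arrays was left out, Trim28MommeD9/+ replicates 3 to 7 and Trim28+/+ replicates 6 to 9 (adjusted p = 0.0516 to 0.0801). Aldh1l1, the formyltetrahydrofolate dehydrogenase, had 4 tested probes with log2 fold changes of 0.17 to 0.29. The brightest was at 0.23 (adjusted p = 0.0537) and 1 other passed at 0.29 (adjusted p over all probes = 0.0113). The brightest passed without Trim28+/+ replicate 1 (adjusted p = 0.0309), 2 (0.027) or 3 (0.0319), and with the authors' values (0.0401). With each array left out in turn, its limma adjusted p ranged from 0.027 to 0.102. On this probe Trim28+/+ replicate 1, at 11.61, was near the Trim28MommeD9/+ mean of 11.65. Leaving out Trim28+/+ replicate 1 gave 8 members higher and 5 lower in place of 5 and 4. Over all genes it gave 13.4% higher and 13.3% lower in place of 10.4% and 11.4%. Mthfs, which returns 5-formyltetrahydrofolate to use, was at 6.31 to 6.73 in Trim28MommeD9/+ livers and 6.03 to 6.62 in Trim28+/+ livers (log2 fold change 0.17, adjusted p = 0.163).

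**Figure D4:**
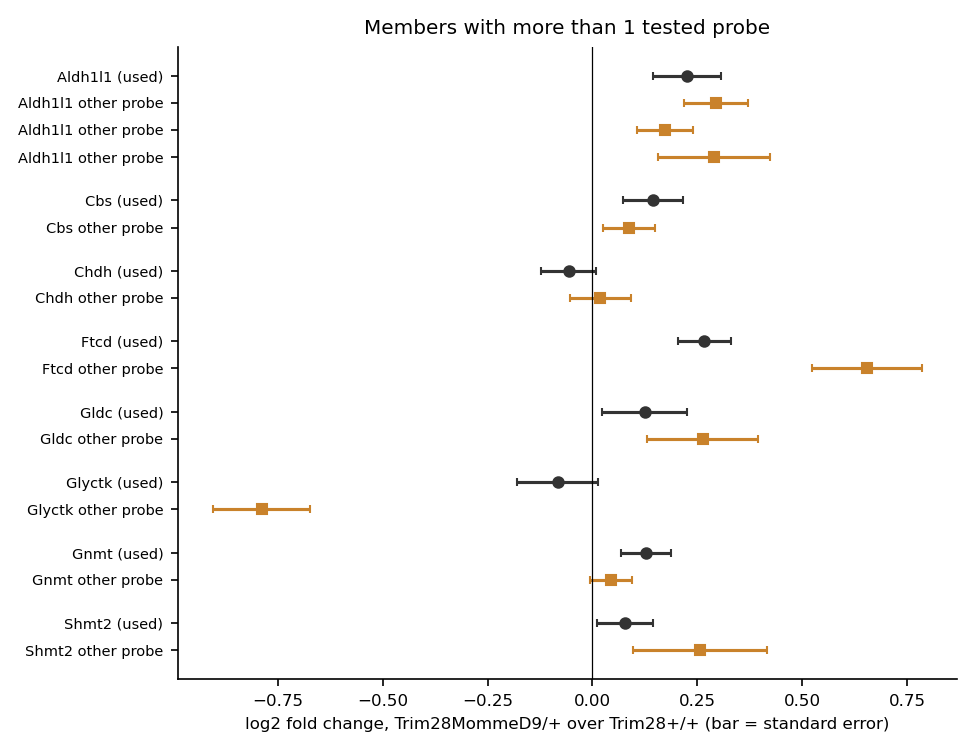
Log2 fold change, Trim28MommeD9/+ over Trim28+/+, with its standard error, of each tested probe of the 8 members with more than 1, the brightest first (dark points) and the others below it (orange squares). The 2 probes of Glyctk are at -0.08 and -0.79 and those of Ftcd at 0.27 and 0.65, while the 4 of Aldh1l1 lie from 0.17 to 0.29.

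Between arrays of 1 genotype the members also varied, and the SD was larger in Trim28MommeD9/+ livers for 6 of 24 members (25%), beside 29.6% of all genes.

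**Figure D5:**
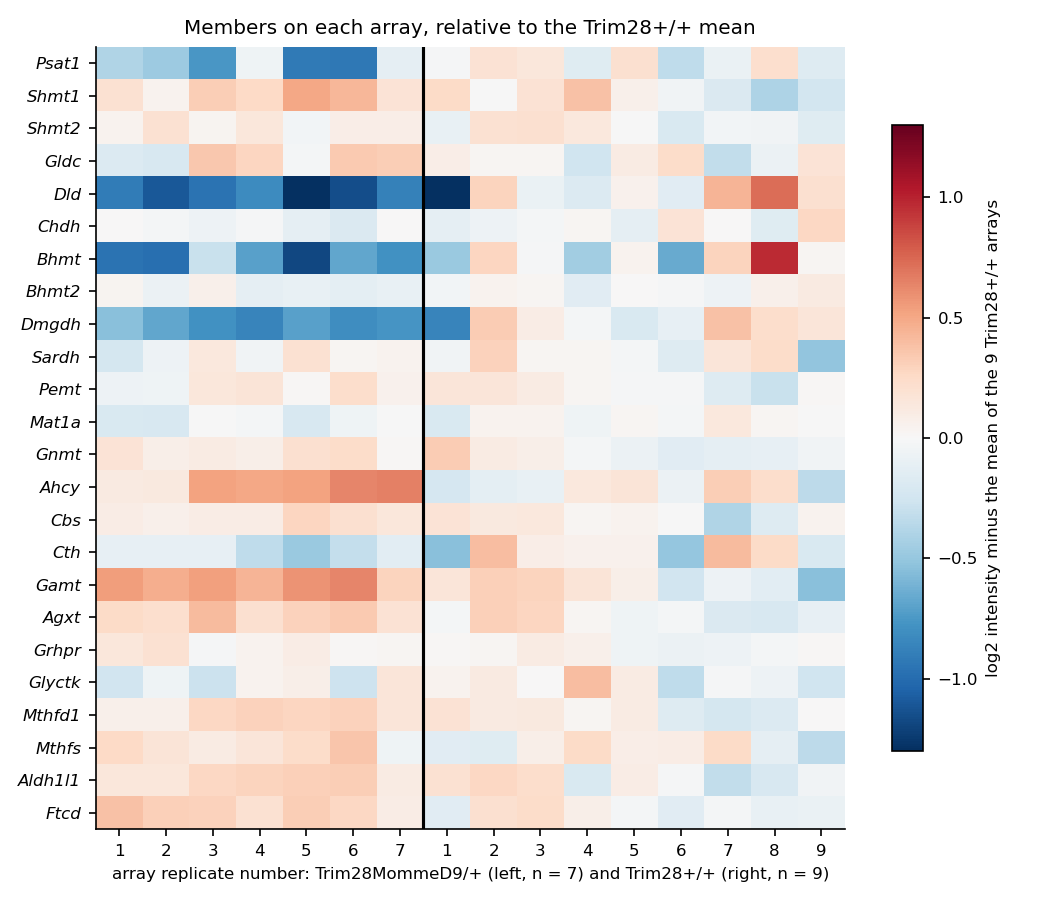
Log2 intensity of the 24 members tested on each array, minus the mean of the 9 Trim28+/+ arrays, with Trim28MommeD9/+ arrays left of the line and Trim28+/+ arrays right of it. Dld, Dmgdh and Bhmt are blue on the left and on Trim28+/+ replicate 1, and Gamt and Ahcy are red on the left.

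The bases before the starts of the members were compared by their CG dinucleotides, as a description. In the 250 bases before a single start of each gene, the median was 13 CG (range 5 to 16) for the 4 lower members, 9 (range 2 to 15) for the 5 higher members and 8 (range 1 to 21) for 13 members that did not pass. Further annotated starts, not counted here, had 24 CG for Psat1, 25 for Mthfs, and 2 for Chdh and for Pemt. Over all tested genes with such a window the medians were 17 for lower genes, 13 for higher genes and 16 for the rest.

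Of 67 tested genes in 5 lists of related pathways, 13 passed the test in either direction (19.4%), beside 21.8% of all genes. Of 11 other folate genes tested, 1 was higher and 1 was lower. Folr2, a folate receptor that is also found on macrophages, had a log2 fold change of 0.58 (SE 0.11, limma adjusted p = 0.00242), and 7 of 7 Trim28MommeD9/+ and 8 of 9 Trim28+/+ arrays detected it. Mthfd2, a mitochondrial folate enzyme, passed in the lower direction (adjusted p = 0.0448), but it was detected on 0 of 7 Trim28MommeD9/+ and 3 of 9 Trim28+/+ arrays. Its means of 4.69 in Trim28MommeD9/+ livers and 5.03 in Trim28+/+ livers were both under the lowest detected signals, so no fold is given, and it did not pass without Trim28+/+ replicate 1 (adjusted p = 0.0627). Of 17 other genes of methionine, polyamines and transsulfuration, 2 were higher and 2 were lower. Those higher were Mpst, a sulfurtransferase of cysteine breakdown (0.49, adjusted p = 0.0325), and Mtap, the phosphorylase of methionine salvage (0.25, adjusted p = 0.0445). Those lower were Enoph1, a later enzyme of methionine salvage (-0.69, adjusted p = 0.005), detected on 2 of 7 Trim28MommeD9/+ and 8 of 9 Trim28+/+ arrays, and Gclc, the catalytic subunit that starts glutathione synthesis (-0.45, adjusted p = 0.0159). The Trim28MommeD9/+ mean of Enoph1, 5.10, was under the lowest detected signals, so -0.69 is not a measured fold. With the background set as a block, Enoph1 turned to 0.16 and Gclc to 0.12, and under scaling to the median of all probes neither Mpst nor Mtap passed.

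Of 15 other genes of glycine and glyoxylate, 1 was higher and 2 were lower. Alas1, which condenses glycine with succinyl-CoA in the step that limits haem synthesis, ranged from 10.81 to 11.22 on Trim28MommeD9/+ arrays and from 11.98 to 13.19 on Trim28+/+ arrays, with no overlap. Its log2 fold change was -1.55 (SE 0.18, limma adjusted p = 9.29e-05), and it was -2.23 with the background set as a block (adjusted p = 0.0126). Hao1, the oxidase that makes glyoxylate, was lower (-0.23, SE 0.06, adjusted p = 0.0103), but was at -0.055 with the background set as a block. Prodh2, a hydroxyproline dehydrogenase, was higher (0.30, SE 0.07, adjusted p = 0.00862), though not under scaling to the median of all probes (0.07, adjusted p = 0.565). Of 8 other choline genes, 1 was higher, the choline kinase Chkb (0.19, SE 0.05, adjusted p = 0.0184), which was at -0.06 under scaling to the median of all probes. Of 16 genes linked to ATF4, the transcription factor known to drive serine synthesis genes under amino acid shortage, 1 was higher and 2 were lower. These were Trib3 (0.68, adjusted p = 0.00943), Asns (-0.61, adjusted p = 0.00702) and Atf4 itself. Trib3 was detected on 7 of 7 Trim28MommeD9/+ and 4 of 9 Trim28+/+ arrays. Its Trim28+/+ mean of 5.16 lay near the lowest detected signals, so 0.68 is not a measured fold. With the background set as a block, Trib3 was at 0.65 and Asns at -0.51. Atf4 passed by limma (adjusted p = 0.0434), but it was detected on 0 of 7 Trim28MommeD9/+ and 6 of 9 Trim28+/+ arrays, so no fold is given. Its Trim28+/+ mean of 5.94, with undetected arrays at face value, was 1.68-fold above the mean lowest detected signal of Trim28MommeD9/+ arrays. The Trim28+/+ values were spread, with a median of 5.41 and a maximum of 8.00. With the background set as a block the value of Atf4 was -0.16.

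The tissue label was checked on marker genes. In bulk liver, fewer cells of a type and less RNA per cell cannot be told apart. The 9 hepatocyte markers tested had a summed normalized intensity of 121906 to 128681 on Trim28MommeD9/+ arrays and 121771 to 132092 on Trim28+/+ arrays, and 3 of 9 were lower (Alb, Serpina1a and Hnf4a). The Alb probe was dim, at 5.00 to 5.67 on Trim28MommeD9/+ arrays (detected on 5 of 7) and 5.03 to 6.97 on Trim28+/+ arrays (detected on 9 of 9). Alb (-1.21) and Serpina1a (-0.80) turned to 0.36 and 0.22 with the background set as a block, and Hnf4a (-0.55) was then at -0.14. Of markers of periportal hepatocytes, 2 of 7 were lower (Hal at -0.73 and Pck1 at -0.86, which were at 0.61 and -0.02 with the background set as a block), and of those of pericentral hepatocytes, 1 of 6 (Cyp2e1). Pck1 was detected on 2 of 7 Trim28MommeD9/+ and 7 of 9 Trim28+/+ arrays. Its Trim28MommeD9/+ mean of 4.79 was under the lowest detected signals, so -0.86 is not a measured fold. Of 5 Kupffer cell markers tested, 3 were higher (Vsig4, Clec4f and C1qa), beside 10.4% of all genes. Adgre1 had a log2 fold change of -0.30 (adjusted p = 0.0721) and Marco one of 0.13 (adjusted p = 0.485). The summed intensity of the 5 was 1315 to 1657 on Trim28MommeD9/+ arrays and 1074 to 1304 on Trim28+/+ arrays. Vsig4, Clec4f and C1qa did not pass under scaling to the median of all probes, where C1qa was at -0.02. Cd5l, Cd68 and Csf1r, 3 of the 8 Kupffer markers listed, were not tested. Of endothelial markers 1 of 6 was higher (Pecam1 at 0.29, and 0.03 under scaling to the median of all probes, adjusted p = 0.804), and Lyve1 was at -0.52 (adjusted p = 0.0507). Lyve1 was detected on 3 of 7 Trim28MommeD9/+ and 9 of 9 Trim28+/+ arrays. Its Trim28MommeD9/+ mean of 5.18 lay near the lowest detected signals, so -0.52 is not a measured fold. Of stellate cell markers 1 of 6 was lower (Col3a1), detected on 0 of 7 Trim28MommeD9/+ and 8 of 9 Trim28+/+ arrays. Its Trim28+/+ mean was 1.16-fold above the mean lowest detected signal of Trim28MommeD9/+ arrays. Of 3 blood cell markers none passed by limma, at an adjusted or an unadjusted p under 0.05. No cholangiocyte marker passed the filter. The part of these markers in the members' calls was not tested.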

How the data were processed

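Illumina MouseRef-8 v2.0 BeadChips were hybridized with liver RNA from mice of both genotypes, 7 Trim28MommeD9/+ and 9 Trim28+/+ arrays by their labels. The authors deposited the raw intensity of each probe on each array and a detection p-value, which is small where a probe stands above the negative controls. They also deposited processed intensity values, linear in the raw ones after a constant was taken off each array. The methods and labels name BeadStudio and GenomeStudio, with versions not given in the sources used here for either.

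Of 25697 probes, 23978 had a gene symbol. The neqc function of limma 3.58.1 (R 4.3.3, offset 16) was used for background correction, quantile normalization and log2 transformation. Probes needed a detection p-value below 0.01 on 3 or more of the 16 arrays, which kept 10291. Each gene was read by its probe of highest mean, giving 7302 genes. Genotypes were compared with limma's linear model with an intensity trend, adjusted by Benjamini-Hochberg, at a threshold of 0.05. Other probes of a gene were tested over all 10291 probes. The code was tested on simulated data with known changes. The number of arrays limits the precision. Tables were handled in Python 3.11.15 with pandas 2.3.3 and NumPy 2.4.6.

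The members and gene lists were chosen with earlier results of these data known. All 35 members are named, and of each other pathway list up to 4 genes with the smallest p among those that passed. Arrays are numbered within a genotype, but arrays that share a number did not deviate together and were not treated as pairs. Alternatives were the scaling, the background correction, the authors' values, the filter, all probes, array weights, blocks for replicate numbers and for background sets, presumptive technical pairs (arrays of a genotype matched by the correlation of their deviations), thresholds and leaving out each array. Sequences and CG counts are from RefSeq windows of GRCm38.p6, matched by symbol for 30 members.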

Additional observations from a re-analysis of the deposited data

Results flagged for a closer look

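In 3 of the 70 groups of values looked at, 1 array stood far from the others by Dixon's criterion, which chance meets in about 1 group in 20. Dld was at 4.88 on Trim28+/+ replicate 1, while the other Trim28+/+ arrays were at 6.01 to 6.91. Dmgdh was at 6.24 on the same array, while the others were at 6.91 to 7.48. A dim probe of Aldh1l1 was at 5.19 on Trim28+/+ replicate 9, while the others were at 5.86 to 6.43.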

How the results depend on the processing

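Main counts were 5 members higher and 4 lower by limma, beside 10.4% and 11.4% of all genes. Scaling to the median of all probes gave 0 higher and 9 lower (1 and 10 at an unadjusted p under 0.05), with the median of all genes at -0.19. The shares of all genes were then 0.479% higher and 34.6% lower. Scaling to the median of the probes detected on all arrays gave 7 and 4, beside 13.3% and 9.74% of all genes. The background set as a block gave 0 higher and 0 lower (2 and 0 unadjusted), with Trim28 at -0.77. Presumptive technical pairs as a random block gave 3 and 3, so that Agxt, Mthfd1 and Bhmt did not pass, beside 2.41% and 4.26% of all genes. A fold change of at least 1.5 gave 0 higher and 3 lower, beside 0.411% and 4.14% of all genes. Leaving out each array gave 4 to 8 higher and 4 to 5 lower, beside 6.87% to 13.4% and 9.09% to 13.3% of all genes. Replicate numbers as a block gave 2 higher and 3 lower, and 541 calls in all genes against 1592. Arrays of the same number had correlations of -0.394 to 0.479, and 2 of 7 correlated best with their own number.

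The sign turned for 8 members with the background set as a block, at 0.26 for Dld, 0.058 for Chdh, 0.12 for Dmgdh, -0.084 for Pemt, 0.10 for Mat1a, -0.20 for Gnmt, -0.035 for Cbs and 0.32 for Cth. With this block the only Trim28+/+ array compared is replicate 1. A deviation of that array and an effect of the background set cannot be told apart. Under scaling to the median of all probes the sign turned for 9 members, at -0.18 for Shmt2, -0.092 for Gldc, -0.26 for Sardh, -0.13 for Pemt, -0.12 for Gnmt, -0.069 for Cbs, -0.13 for Grhpr, -0.016 for Mthfd1 and -0.081 for Mthfs, beside the shift of all genes of -0.19. Sardh, at 0.0068 in the main comparison, was also at -0.000534 with the median of detected probes, -0.046 with the authors' values, -0.013 with array weights, -0.033 with the replicate block and -0.057 to 0.047 with arrays left out. Without a filter 4 and 4 members were called, beside 2.78% of all genes higher and 4.32% lower. Without background correction 5 and 4 were called, beside 10.6% and 11.4%. With detection on at least 7 arrays 5 and 4 were called, beside 10.9% and 11.3%.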
